A study of Homo sapiens with 14 samples.

Results

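The promoter of KMT2A on chromosome 11 carried an HSF2 peak in 3 of the 4 HSF2 peak lists of K562 cells and in 0 of the 4 HSF1 lists. The locus described here is chr11:118295000-118402000 (hg19), a stretch of 107 kb that holds the KMT2A start near 118307200, and its members are the deposited peaks that overlap it in any of 12 lists. There are 11 such peaks among 117699 in all lists together: 4 of HSF2, 0 of HSF1 and 7 of the non-specific antibody IgG. The locus was chosen by the peak calls themselves, an HSF2 peak and no HSF1 peak at the promoter, so that contrast is a description and was given no test.

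The lists come from ChIP-seq, the sequencing of DNA pulled down with an antibody from cross-linked chromatin, in K562, a human erythroleukemia line kept at 37 °C. HSF2, HSF1 and IgG were each precipitated from mitosis-arrested cells exposed to 42 °C for 30 min (heat-treated mitotic), arrested cells without heat (non-treated mitotic), heat-treated cycling cells and non-treated cycling cells. Each of these 12 groups is 1 library made from 10 pooled immunoprecipitations, with no replicate, so no test of heat, cell state or antibody can be made and all intervals are 95% intervals for counting error alone. The 6 mitotic lists were called against 1 input of 38337720 kept tags and 5 cycling lists against 1 of 34815679. Non-treated cycling IgG, whose own alignment name lacks bwa, was called against an input of 36542527 kept tags. Both input libraries of the series are labelled as heat-treated. The HSF1 and IgG antibodies were commercial and the HSF2 antibody is credited in the labels to an earlier publication. How the arrest was made is not given in the sources used here. Libraries kept 14782391 to 28676943 tags for HSF2, 6164898 to 16735990 for HSF1 and 2066373 to 17981369 for IgG. The alignment names carry bwa in 5 of the 6 cycling lists and in 0 of the 6 mitotic lists, so alignment naming and cell state can hardly be told apart.

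KMT2A, also called MLL, encodes a methyltransferase that places methyl groups on lysine 4 of histone H3 at active genes, and its rearrangements drive a class of acute leukemias. HSF1 and HSF2 are related transcription factors that bind the heat shock element, a run of inverted GAA units, and HSF1 drives the induction of many heat shock genes. HSF2 can join HSF1 on that element, and it has been described at a heat shock gene promoter in mitotic cells. By the gene order of the RefSeq annotation of GRCh38.p14, KMT2A lies between ATP5MG, which encodes a subunit of the mitochondrial ATP synthase, and the noncoding TTC36-AS1.

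The DNA around the start is shown because the HSF2 summits fall on it and it holds none of the paired or triple heat shock units searched. The RefSeq window of the KMT2A promoter in GRCh38.p14 is chr11:118436242-118436541 on the plus strand. It covers 250 bases before and 50 bases from the gene start on, and the capitals mark the letters GGGCGG or CCGCCC, the GC box known to be bound by Sp and KLF factors.
KMT2A promoter: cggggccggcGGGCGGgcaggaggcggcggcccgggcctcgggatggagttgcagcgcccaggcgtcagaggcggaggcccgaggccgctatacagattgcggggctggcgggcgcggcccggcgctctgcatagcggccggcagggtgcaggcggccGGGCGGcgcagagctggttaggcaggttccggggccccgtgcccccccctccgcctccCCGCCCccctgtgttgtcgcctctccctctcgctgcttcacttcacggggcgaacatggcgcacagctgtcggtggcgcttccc
The window is 76.3% G and C and holds 36 CpG pairs, against medians of 58.7% and 14 over the 35116 promoters of the RefSeq table. Of all promoters, 7.36% reached that G and C content and 12.7% that number of CpG pairs. GGGCGG, read on both strands, matched 3 times, with its leftmost base 240, 92 and 34 bases upstream of the start, and 45.0% of all promoters hold it.

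The heat shock element was searched on both strands as 3 alternating units of GAA and TTC spaced by NN, and as the 2-unit forms GAANNTTC and TTCNNGAA, which lie within it and read the same on both strands. None of these letters occurred in the KMT2A window, and they occurred in 0.490%, 6.77% and 7.74% of all promoters. The search took exact letters, and units with a mismatch were not searched. CCGGAAG (ETS factors), CCAAT (NF-Y) and TGACGTCA (CREB family), read on both strands, were not in the window either, and 10.3%, 34.6% and 1.85% of promoters hold them. The single units GAA and TTC came to 5 in the window, against a median of 9, and 20.0% of promoters had no more. The peaks are in hg19 and reach beyond this window, so DNA outside it was not read.

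An HSF2 peak was listed at the promoter in mitotic cells with and without heat and in heated cycling cells. In heat-treated mitotic cells the peak chr11:118306567-118307317 held 52 tags, which is 1.84 tags per 1000000 kept tags (CPM, 1.37 to 2.41), at a fold of 14.1 over input. In non-treated mitotic cells the peak chr11:118306553-118307395 held 44 tags, 2.98 CPM (2.16 to 4.00), at a fold of 11.6. In heat-treated cycling cells the peak chr11:118306780-118307208 held 37 tags, 1.90 CPM (1.34 to 2.62), at a fold of 12.8. The HSF2 list of non-treated cycling cells held no peak there. The fold is the authors' own value per peak, not adjusted for depth, and serves here to describe and rank peaks within a list. The scores, minus 10 times log10 of the peak caller's p-value, were 335, 696 and 455 in that order of lists, and the deposited FDR was 1.09%, 0% and 0%.

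**Figure D1:**
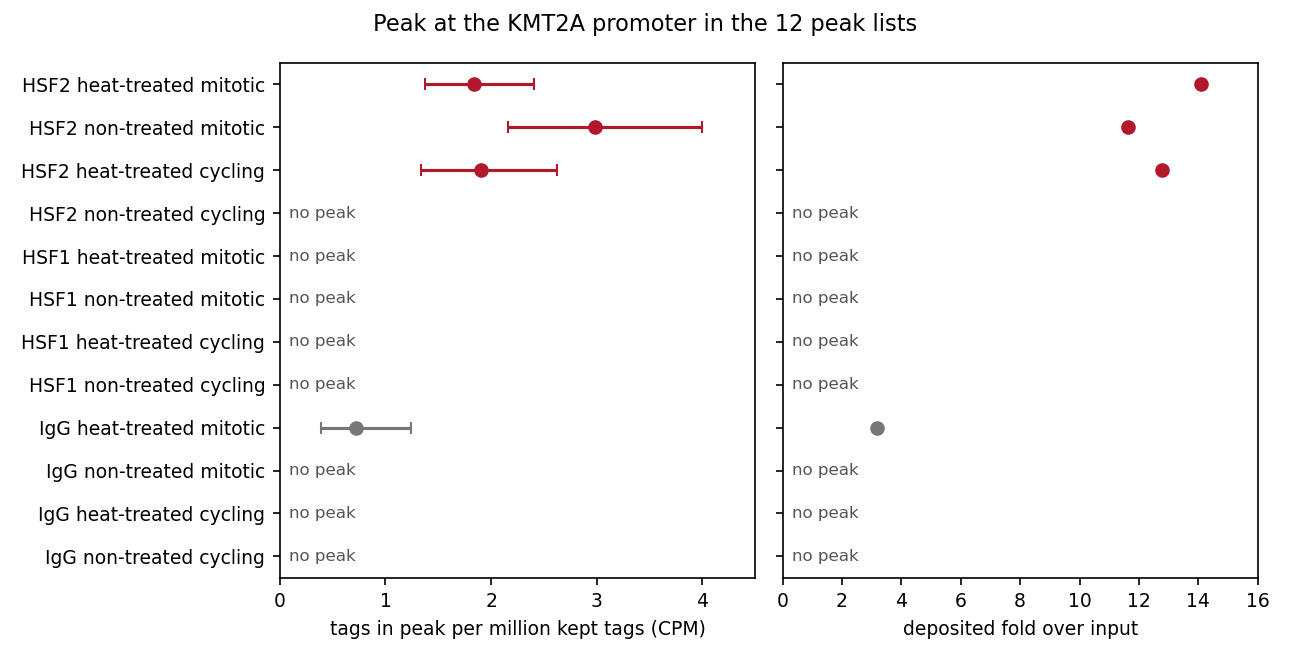
Tags per 1000000 kept tags (left, with 95% Poisson intervals) and deposited fold over input (right) of the peak at the KMT2A promoter in each of the 12 lists, 1 library each. The 3 HSF2 peaks have folds of 11.6 to 14.1, the IgG peak has 3.17, and the other 8 lists have no peak.

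The 3 HSF2 peaks marked the same place. Their summits lay 165 bp (heat-treated mitotic), 142 bp (non-treated mitotic) and 191 bp (heat-treated cycling) upstream of the start, within 49 bp of each other. The whole heat-treated cycling peak of 429 bp lay inside both mitotic peaks, and the heat-treated mitotic peak of 751 bp lay inside the non-treated mitotic peak of 843 bp. The start lay inside all 3 HSF2 peaks, 8 bp before the end of the heat-treated cycling peak.

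**Figure D2:**
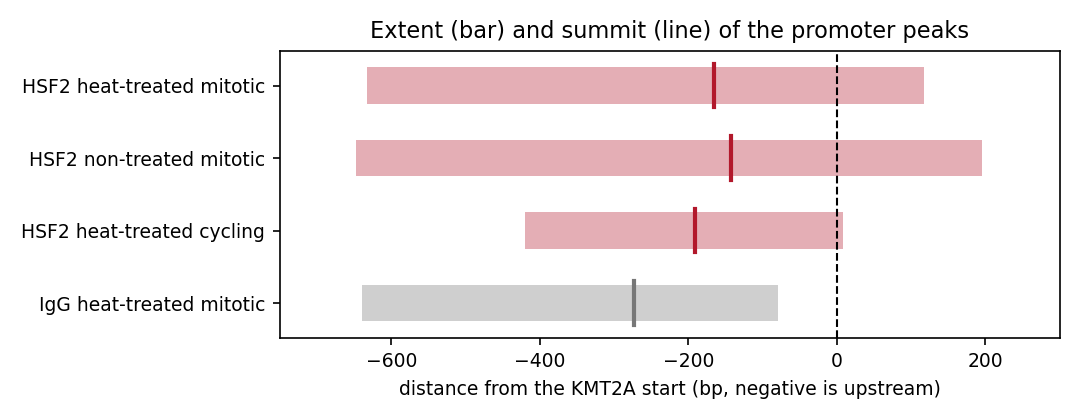
Extent (bars) and summit (lines) of the 4 peaks at the promoter, by distance in bp from the KMT2A start (dashed, negative is upstream), for the 3 HSF2 lists in red and the IgG list in grey. The HSF2 summits lie 142 to 191 bp upstream of the start and the IgG summit 273 bp upstream.

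IgG was listed at the promoter in 1 of its 4 lists, that of heat-treated mitotic cells. Its peak chr11:118306560-118307121 held 13 tags, 0.723 CPM (0.385 to 1.24), at a fold of 3.17 and a score of 75.6. That is the lowest tag count in a list of 41184 peaks and equals the list's median fold of 3.17. HSF2 of the same cells had 2.54 times the CPM of IgG (1.36 to 5.09), or 1.90 times per kb of peak width (1.02 to 3.81). The IgG summit lay 273 bp upstream of the start, 108 bp from the HSF2 summit of the same cells, and the IgG peak ended 79 bp short of the start. The part of this IgG signal in the mitotic HSF2 values was not tested. In heat-treated cycling cells, where HSF2 had a fold of 12.8, IgG had no peak at the promoter.

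Across the rest of the locus, HSF2 was listed at 1 other place. In non-treated mitotic cells a weak peak at chr11:118367651-118368199 held 12 tags, 0.812 CPM (0.419 to 1.42), at a fold of 2.33, with its summit 60.6 kb downstream of the start. The count of 12 is also the smallest tag count in that list of 19866 peaks. The other IgG peaks were as weak. Heat-treated mitotic IgG had 3 more, 9.22 kb upstream (fold 3.17) and 45.5 and 94.2 kb downstream of the start (folds 4.23 and 2.46). Heat-treated cycling IgG had 1, 7.71 kb upstream (fold 2.50). Non-treated cycling IgG had 2, at 85.6 and 88.4 kb downstream (folds 1.84 and 2.50). All 6 held 12 to 14 tags.

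At the mean density of each list over an effective genome of 2700000000 bp, a stretch of this length would hold 1.32 HSF2, 0.819 HSF1 and 2.52 IgG peaks in the 4 lists of each antibody together. The observed numbers were 4, 0 and 7. The peak closest to the edge of the locus was the IgG peak chr11:118401189-118401750, 250 bp inside it with 13 tags. The closest left out was the heat-treated mitotic IgG peak chr11:118402544-118403130, 544 bp outside it, also with 13 tags, followed by the non-treated mitotic HSF2 peak chr11:118404223-118404869 with 14 tags.

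**Figure D3:**
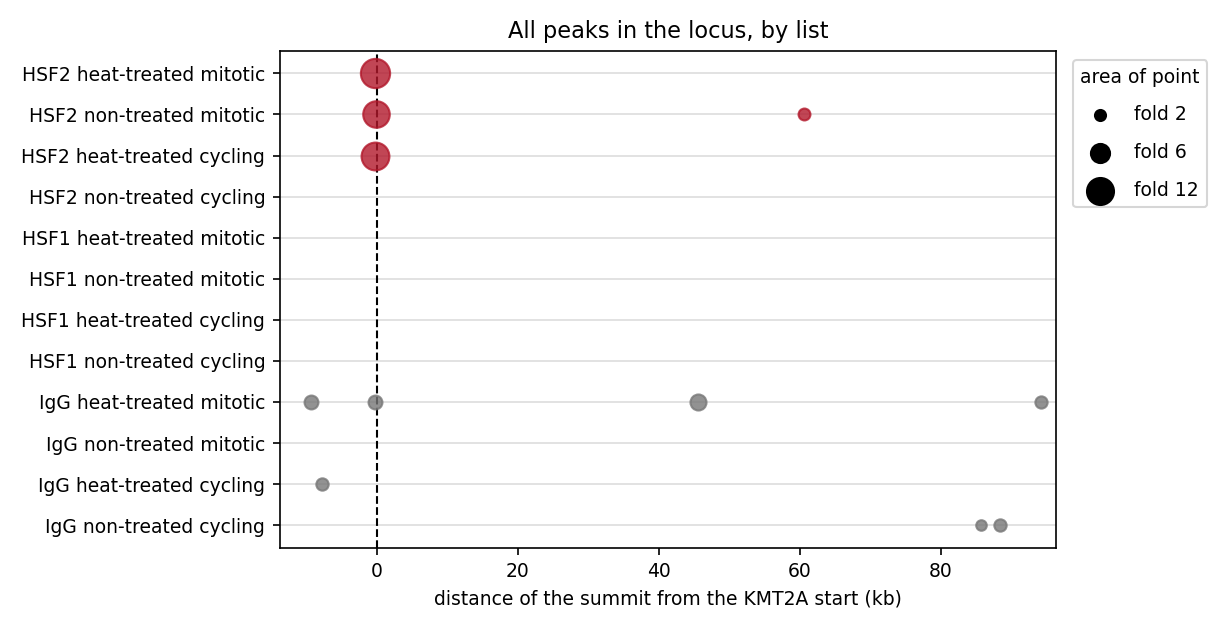
Summits of all 11 peaks of the locus by distance in kb from the KMT2A start (dashed), for each of the 12 lists, with the area of a point in proportion to the deposited fold. The 3 HSF2 peaks at the start have folds of 11.6 to 14.1, and the 8 other peaks have folds of 1.84 to 4.23.

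No HSF1 list had a peak anywhere in the 107 kb. The nearest downstream HSF2 peak of heat-treated cycling cells lay 166 kb from the start, at chr11:118472822-118473560, with 29 tags and a fold of 7.33 (1.49 CPM, 0.997 to 2.14). HSF1 of the same cells had its nearest peak there too, at chr11:118472938-118473682, with 33 tags and a fold of 8.22 (1.97 CPM, 1.36 to 2.77). On the upstream side the nearest peaks of both factors in heat-treated cycling cells lay 522 kb away, with 25 HSF2 tags and 16 HSF1 tags. The neighbouring peaks on both sides were therefore listed for both factors, while the promoter peak between them was listed for HSF2. In the other HSF1 lists the nearest peaks lay 618 kb upstream and 658 kb downstream (heat-treated mitotic), 4.44 and 1.41 Mb away (non-treated mitotic), and 929 and 219 kb away (non-treated cycling). In the HSF2 lists they lay 269 kb upstream and 192 kb downstream (heat-treated mitotic), and 264 kb upstream (non-treated mitotic). Non-treated cycling HSF2, whose list has 24 peaks on chromosome 11, had its nearest peaks 28.5 Mb upstream and 4.63 Mb downstream.

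A missing HSF1 peak was rare at strong HSF2 sites of heated cycling cells and common at weak ones. Of the 156 HSF2 peaks with a fold of at least 10 in heat-treated cycling cells, 155 (99.4%) overlapped an HSF1 peak of the same cells by at least 1 bp, and the KMT2A promoter was the 1 that did not (0.641%, Wilson interval 0.113 to 3.54). Over all 4315 HSF2 peaks of any fold, 51.6% had no HSF1 peak. In heat-treated mitotic cells 2 of 10 HSF2 peaks with that fold (20.0%) lacked HSF1, the KMT2A promoter among them, and 88.1% of all 8270 HSF2 peaks. In non-treated mitotic cells the promoter was the 1 of 4 (25.0%), and 92.9% of all 19866 peaks lacked HSF1. In non-treated cycling cells, where the promoter had no HSF2 peak, the shares were 60.0% of 5 and 61.0% of 875. These shares used the contrast that chose the locus and are given as background. The fold is not adjusted for depth, so a minimum of 10 is not a like level in the 4 lists.

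The 156 sites show what level of HSF1 went with HSF2 elsewhere. At the 155 sites with both factors, HSF1 held 20 to 601 tags, with a median of 69, and its CPM was 0.541 to 2.61 times that of HSF2, with a median of 1.22. KMT2A had fewer HSF2 tags than most, with 149 of the 156 sites above it. At the 6 other sites with no more than its 37 HSF2 tags, HSF1 held 37 to 54 tags. An HSF1 peak at the CPM of the HSF2 promoter peak would have had 31.8 tags in heat-treated cycling cells, where the HSF1 list goes down to 13 tags and 76.9% of its peaks have no more than that.

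**Figure D4:**
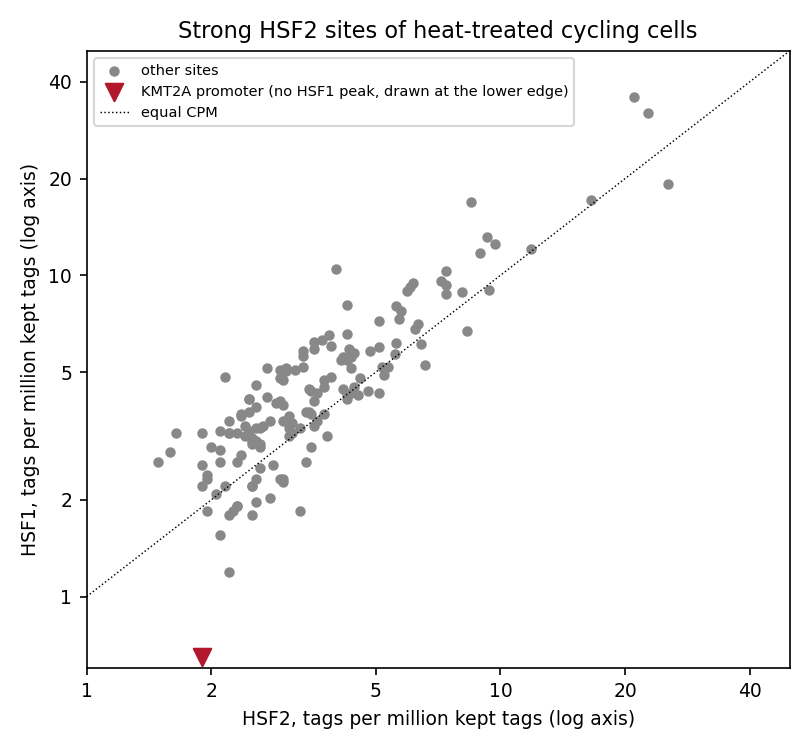
HSF2 and HSF1 tags per 1000000 kept tags (log axes) at the 156 HSF2 peaks with a fold of at least 10 in heat-treated cycling cells, 1 point per site. The KMT2A promoter, at 1.90 CPM of HSF2, is drawn at the lower edge because the HSF1 list has no peak there, and the other 155 sites have 1.20 to 35.9 CPM of HSF1.

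The same reading in the other HSF1 lists gave fewer tags. The HSF2 level of the same cells at the promoter would have given 13.6 tags in heat-treated mitotic HSF1 and 18.3 in non-treated mitotic HSF1, where the lists go down to 9 and 8 tags and 63.4% and 78.9% of peaks have no more. The heat-treated cycling level would have given 27.4 tags in non-treated cycling HSF1, against a lowest count of 12 and a median of 14. In non-treated mitotic IgG the HSF2 level of the same cells would have given 6.15 tags, where the list goes down to 6 and 30.2% of peaks have no more, and the heat-treated cycling level 3.93, so the absence of a peak there says little. In heat-treated and non-treated cycling IgG the heat-treated cycling level would have given 27.7 and 28.0 tags, where both lists go down to 12. Both mitotic HSF1 lists and non-treated mitotic IgG kept at most 1 tag per position, while the HSF2 lists kept at most 2. Peak widths differ between lists too, so these are readings of depth and not of what the peak caller would have done.

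In cycling cells the promoter peak was listed with heat and not without it. The heat-treated library had 19476014 kept tags, against 28676943 in the non-treated one, the deepest of the series. The heat-treated level of 1.90 CPM would have given 54.5 tags in the non-treated library, where the list goes down to 17 tags and 59.7% of its 875 peaks have no more. The peaks of that list nearest to the promoter had a deposited FDR of 20.5% (upstream) and 28.6% (downstream). The heat-treated cycling promoter peak had 0%. The FDR over the whole non-treated list was not summarised. Among the 156 sites, 29 (18.6%) had a non-treated cycling HSF2 peak, with 19 to 399 tags and a median of 33. The share with a non-treated cycling HSF1 peak was 8.97%, and with IgG 3.85% with heat and 4.49% without. These shares were computed for the 156 sites alone.

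In mitotic cells the promoter peak was listed with and without heat, and was lower with heat per kept tag. The ratio of CPM, heat-treated over non-treated, was 0.617 (0.405 to 0.944). Per 1000000 total tags it was 0.699 (0.459 to 1.07) and per kb of peak width 0.693 (0.455 to 1.06), intervals that include 1. The deposited fold ran the other way, 14.1 with heat and 11.6 without, while the fold scaled to depth gave a ratio of 0.633. The heat-treated library had 28299989 kept tags and the non-treated library 14782391. Over the 1815 heat-treated mitotic HSF2 peaks that overlap a non-treated one, the median ratio was 0.963, and 12.8% lay below the value of KMT2A.

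By fold over input, the promoter was near the top of the mitotic HSF2 lists, and by score and tag count it ranked lower. By fold it ranked 4 of 8270 peaks with heat and 2 of 19866 without, and 1 on chromosome 11 in both lists (of 350 and 688 peaks). By score it ranked 92 with heat and 103 without, and by tags 901 and 985. In heat-treated cycling cells it ranked 77 of 4315 by fold (6 of 178 on chromosome 11), 135 by score and 934 by tags. Among the 10 peaks of highest fold, 8 with heat and 9 without overlapped an HSF1 peak in at least 1 HSF1 list. An IgG peak in at least 1 IgG list overlapped 7 with heat and 9 without, the KMT2A promoter among them in both. Over all peaks, 88.1% with heat and 92.9% without had no HSF1 peak of the same cells. The share over all peaks for any HSF1 list was not computed. With heat, the 2 without HSF1 were the KMT2A promoter and the peak of highest fold, chr1:221229070-221230129, which had a peak in no other list. Without heat, the KMT2A promoter was the peak that lacked HSF1. HSF2 without HSF1 is the contrast that chose the locus, so this is a description. The peak above KMT2A without heat, chr17:31148864-31150300 with 344 tags, had a peak in all 12 lists.

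Most strong HSF2 sites of heated cycling cells had no listed HSF2 peak or a lower CPM in mitotic cells, while KMT2A was near its cycling level per kept tag. The sites were chosen by a high fold in heat-treated cycling HSF2, the denominator of the ratios below, and that choice favours low ratios. With 149 of the 156 sites above its 1.90 CPM there, KMT2A had a small denominator. Of the 156 sites, 81 (51.9%) had an HSF2 peak in heat-treated mitotic cells, 31 (19.9%) in non-treated mitotic cells, 28 (17.9%) in both and 13 (8.33%) in both but not in non-treated cycling cells. The same shares were not computed for all 4315 peaks of the list, so whether they are unusual cannot be read here. The CPM ratio of HSF2, heat-treated mitotic over heat-treated cycling, was 0.967 at KMT2A (0.622 to 1.52), against a median of 0.266 over the 81 sites, with quartiles of 0.195 and 0.329. Per kb of peak width, where the narrower cycling peak counts for more, the ratio at KMT2A was 0.553 (0.356 to 0.866), against a median of 0.348, and 3 of the 81 sites were above it. By CPM, 2 of the 81 sites had a higher ratio, chr17:31149136-31150111 and chr20:26188506-26191017, and both had less HSF2 in heat-treated mitotic cells (10.2 and 56.2 CPM) than IgG (25.4 and 110 CPM). The next below KMT2A was chr14:102553236-102553744, at 0.949, with no IgG peak in heat-treated mitotic cells and 44 HSF1 tags in heat-treated cycling cells.

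Without heat KMT2A again lay above most sites. The CPM ratio, non-treated mitotic over heat-treated cycling, was 1.57 at KMT2A (0.989 to 2.49), against a median of 0.264 over 31 sites, and the 2 sites above it were the same sites on chromosomes 17 and 20. Per kb of peak width the ratio at KMT2A was 0.797 (0.503 to 1.27), below 1, against a median of 0.461, with 2 sites above it. At the 25 sites where both HSF2 and IgG had a heat-treated mitotic peak, the ratio of HSF2 to IgG had a median of 1.23, and 1 site was above the 2.54 of KMT2A. Another 56 sites with a mitotic HSF2 peak had no IgG peak, so no ratio can be given for them. Heat-treated mitotic IgG was listed at 22.4% of the 156 sites and non-treated mitotic IgG at 1.28%. Mitotic HSF1 was listed at 60.9% with heat and 7.69% without, and KMT2A was in neither list. These values cover the 156 sites alone, compare single libraries and were given no test.

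**Figure D5:**
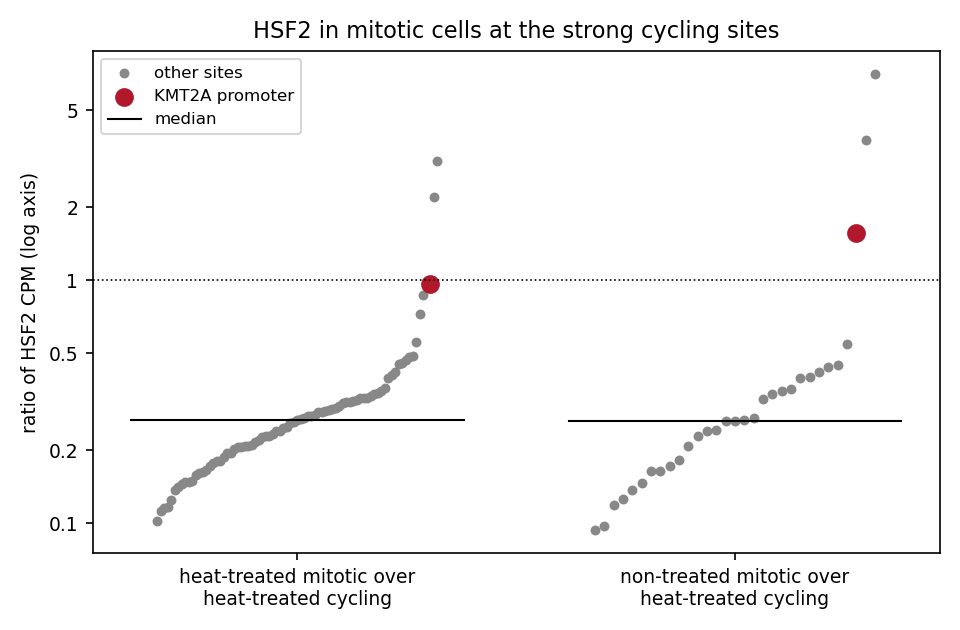
Ratio of HSF2 tags per 1000000 kept tags (log axis) in heat-treated mitotic (left, 81 sites) and non-treated mitotic cells (right, 31 sites) over heat-treated cycling cells, 1 point per site in order of size, with the median as a line. The KMT2A promoter, in red, is at 0.967 and 1.57, against medians of 0.266 and 0.264. The sites were chosen by fold in heat-treated cycling HSF2, the denominator.

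The cycling promoter peak was also unusually narrow. Its width of 429 bp compares with a median of 1042 bp over the 156 sites, of which 154 were wider, and with 729 bp over the whole list. The mitotic peaks of 751 and 843 bp were wider than the medians of their lists, 691 and 590 bp.

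Of all merged regions, few shared the pattern of KMT2A. HSF2 without HSF1 is part of that pattern and chose the locus, so its rarity is a description. When the peaks of all lists were merged into 86567 regions, 19 others (0.0219%) had peaks in the same 3 HSF2 lists and in none of the other 5 HSF lists. That base includes regions listed for IgG alone, and the share among regions with peaks in those 3 HSF2 lists was not computed. Of the 19 regions, 17 had a heat-treated mitotic IgG peak, and 15 of those IgG peaks had a higher CPM than the one at KMT2A. The non-treated mitotic HSF2 level of KMT2A, 2.98 CPM, was above that of all 19, whose highest was 2.37 CPM, while 4 exceeded it in heat-treated mitotic and 3 in heat-treated cycling HSF2. When peaks with a fold under 5 were left out before merging, 0 other regions had the pattern.

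By Euclidean distance of log2(CPM + 0.5) over the 12 lists, the most alike was chr12:131866190-131867975 (distance 0.857). It had 1.27 CPM in heat-treated mitotic, 2.10 in non-treated mitotic and 1.54 in heat-treated cycling HSF2, and 1.33 in heat-treated mitotic IgG. The next 4 were chr7:102123342-102127675 (1.35), chr5:176924049-176925279 (1.36), chr9:37421665-37423316 (1.43) and chr21:46674966-46678312 (1.48). Among these 5, heat-treated mitotic HSF2 had a higher CPM than IgG of the same cells on chromosomes 7 (2.12 and 2.00) and 9 (1.66 and 0.723), and a lower one on chromosomes 12, 5 and 21. These are merged regions of unlike width, all wider than the KMT2A region, and CPM was not scaled to width.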

How the data were processed

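The submitters' processing notes name hg19, Bowtie and MACS 1.4 as build, aligner and peak caller. Per the file headers the MACS release was 1.4.1, run at a p cutoff of 1e-05 and a fragment size of 200 bp against the input. In each deposited list, tags are counts per peak, the score is minus 10 times log10 of the p-value, the fold is the authors' ratio of precipitated to expected tags, and the FDR is a percent, per the file headers. Chromosome accessions in non-treated cycling IgG were renamed.

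From these, counts were scaled to 1000000 kept tags (CPM, from the headers) with exact Poisson intervals, ratios have exact conditional binomial intervals, and shares have Wilson intervals, all at 95% and for counting error alone. The summit is the peak start plus the deposited offset. The depth-scaled fold is the fold times input over ChIP kept tags. A promoter peak overlaps 1000 bp to either side of the start, and the start is approximate, so distances are too. Regions named are the peaks of the locus, the nearest peaks of the HSF lists and the 5 most alike regions. The sites with the highest mitotic ratios, the fewest tags or the highest mitotic folds were chosen after their values were seen. The locus and lists were chosen with earlier results of these data known. Methyltransferase partner genes were not analysed here, since no hg19 annotation was at hand. The overlap and interval code was tested on simulated data. Scripts ran under Python 3.11.15 with scipy 1.17.1, numpy 2.4.6, pandas 2.3.3 and matplotlib 3.10.9.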

Additional observations from a re-analysis of the deposited data

Results flagged for a closer look

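At the KMT2A promoter, HSF2 was lower with heat per kept tag in mitotic cells, while in cycling cells a peak was listed with heat and not without. In mitotic cells the CPM ratio of heat-treated over non-treated was 0.617, with 1.84 CPM with heat and 2.98 CPM without. In cycling cells the heat-treated list had a peak of 1.90 CPM and the non-treated list had none. The mitotic ratio had intervals that include 1 per total tags (0.459 to 1.07) and per kb of peak width (0.455 to 1.06), and the ratio of deposited folds was 1.21. The cycling side rests on a missing peak and not on a measured level. Each cell state has 1 library per treatment, and the difference was not tested.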

How the results depend on the processing

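Of 78 values recomputed under other settings, 59 stayed within the interval or 1.5 times the count of the reported value, 18 moved and 1 reversed. The reversed one was the mitotic HSF2 ratio of heat-treated over non-treated, 0.617 by CPM and 1.21 by deposited fold, a setting chosen after seeing the data. By that setting heat-treated mitotic over heat-treated cycling was 1.10 and non-treated mitotic over heat-treated cycling 0.910. The 3 HSF2 lists with a promoter peak stayed listed under each of the 7 settings of window, fold, score, FDR and summit. The 0 HSF1 lists could not have changed, so that value is no check of the contrast, which also chose the locus. Stricter settings can only remove peaks, and the nearest HSF1 peak of any list lay 166 kb from the start, beyond the widest window. The HSF1 promoter values are counted among the 59. A fold of at least 5 or 10 or a score of at least 100 left 0 IgG lists at the promoter. IgG peaks in the locus numbered 0 at either fold and 1 at that score. Per kb of peak width, the ratio over heat-treated cycling was 0.553 for heat-treated and 0.797 for non-treated mitotic cells. The share of HSF2 peaks without HSF1 depended on the minimum. In heat-treated mitotic cells it was 88.1% with no minimum and 75.5% at a fold of 5, in non-treated mitotic cells 92.9% with no minimum and 89.0% by score, in heat-treated cycling cells 51.6% with no minimum, 9.35% at a fold of 5 and 12.8% by score, and in non-treated cycling cells 20.3% by score. Merging peaks with a fold of at least 5 left 0 like regions, since weaker peaks are dropped, and other pseudocounts kept the same 5 most alike. No paired analysis was possible because each group has 1 library. Depth limits the values most in non-treated mitotic IgG.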
